A study of Sus scrofa with 6 samples.

Results

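The genes described here are 6 of the 22204 transcripts with a read in any library: *PI16* (ENSSSCT00000001749), *PI15* (ENSSSCT00000006766), *IGSF10* (ENSSSCT00000012827), *SVEP1* (ENSSSCT00000006000), *LAMA2* (ENSSSCT00000032175) and *ANGPTL7* (ENSSSCT00000003787). They encode proteins that fibroblasts and related connective tissue cells secrete into the matrix or the basement membrane. The members were chosen by their transcript identifiers from the study's own list of genes with over 2-fold higher expression in the CNV/CNV than in the wild-type piglets of this series. For this reason the direction of the genotype difference was fixed by the choice, and the values of that contrast are given as a description. Counts of members past a threshold stand only beside those over all transcripts. All 6 passed the expression filter, which left 16645 transcripts. RNA from the ear of 6 new born piglets of the Sutai breed, a synthetic line from Chinese Taihu and Western Duroc pigs, was sequenced with 1 library per piglet. The labels give 3 piglets the genotype QQ at the ear size locus and 3 the genotype qq. In the article QQ piglets are CNV/CNV, homozygous for a duplicated segment at the end of *MSRB3*, with large ears, and qq piglets are wild-type, with small ears. The CNV/CNV piglets are named 6185STQ, 6415 and 6434 and the wild-type piglets 6161ST, 6165ST and 6407. The labels give neither sex nor litter.

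The dermis and the perichondrium of the ear are built by fibroblasts. These cells lay down collagen and elastic fibres and also secrete a set of less abundant proteins that sit between the fibres, bind proteases or cells, or line the basement membranes of vessels, nerves and muscle fibres. *PI16* and *PI15* encode peptidase inhibitors of the CAP family of secreted proteins, and *PI16* is a known marker of fibroblasts in the outer layer of vessels and in fascia. *SVEP1* encodes a very large matrix protein built of sushi, EGF-like and pentraxin domains that binds integrins, and *IGSF10* a secreted protein with immunoglobulin-like domains. *LAMA2* encodes the alpha chain of the main laminin of muscle and nerve basement membranes. *ANGPTL7* encodes a secreted protein related to the angiopoietins, with a fibrinogen-like domain, best known from the stroma of the eye.

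The libraries held 39.3 M to 44.2 M uniquely mapped reads assigned to transcripts. Along the first principal component of the 500 most variable transcripts (45.9% of the variance), 6161ST and 6165ST lay at -28.4 and -30.8, apart from 6185STQ at 1.8 and from 6407, 6434 and 6415 at 13.4, 19.8 and 24.2. The names of 3 piglets hold the letters ST (6161ST, 6165ST and 6185STQ), and what the letters stand for is not given in the sources used here. Since 2 of the 3 ST-named piglets are wild-type and 2 of the other 3 are CNV/CNV, name and genotype are partly mixed in this design. In tissue samples, fewer fibroblasts and less of an RNA in each fibroblast cannot be told apart, and this holds for every value below. Reads were counted in the tables without a stated strand. In the RefSeq annotation of Sscrofa11.1 *ANGPTL7* lies within the span of *MTOR*, and the span of *IGSF10* overlaps that of *MED12L*. Only whole spans were compared, not exons. Whether reads of *MTOR* or *MED12L* were counted for *ANGPTL7* or *IGSF10* was not tested. The other 4 genes overlapped no annotated gene.

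**Figure D1:**
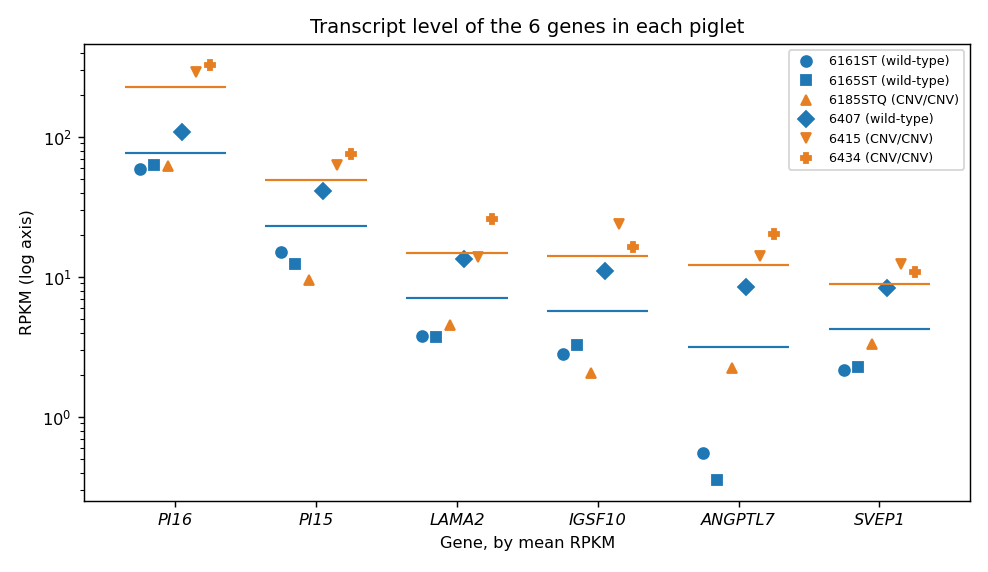
Level of each of the 6 genes (RPKM, log axis), with a symbol per piglet, blue for wild-type and orange for CNV/CNV, and bars at the genotype means of 3 piglets. For each gene the 3 symbols on the left, the ST-named piglets, lie below the 3 on the right, as for PI16 with at most 63.2 RPKM against at least 108 RPKM.

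In no member were the 3 CNV/CNV piglets apart from the 3 wild-type piglets. Levels are in RPKM, the reads of a transcript scaled to its length and to the total of its library. *PI16* was the most abundant member. Its level was 59.5, 63.2 and 108 RPKM in the wild-type piglets 6161ST, 6165ST and 6407, and 62.6, 290 and 329 RPKM in the CNV/CNV piglets 6185STQ, 6415 and 6434. The high CNV/CNV mean thus came from 6415 and 6434, while 6185STQ lay between the lower wild-type piglets. The wild-type mean was 76.9 ± 26.9 RPKM and the CNV/CNV mean 227 ± 144 RPKM (SD, n = 3 each, here and for the means that follow). The fit by edgeR put the log2 fold change at 1.68 (standard error 0.56). In 6434 *PI16* ranked above 98.8% of the transcripts tested, and in 6161ST above 92.6%.

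*PI15*, the other peptidase inhibitor of the CAP family, had 15.01, 12.5 and 41.5 RPKM in 6161ST, 6165ST and 6407 and 9.56, 63.6 and 76.0 RPKM in 6185STQ, 6415 and 6434. Here the lowest piglet of all was a CNV/CNV piglet, 6185STQ. The wild-type and CNV/CNV means were 23.0 ± 16.1 and 49.7 ± 35.3 RPKM, and the fitted log2 fold change was 1.21 (standard error 0.73). *IGSF10* had the same lowest piglet. Its level was 2.83, 3.29 and 11.0 RPKM in the wild-type piglets and 2.06, 24.01 and 16.4 RPKM in the CNV/CNV piglets, in the same order of names. The means were 5.72 ± 4.62 and 14.2 ± 11.15 RPKM, and the log2 fold change was 1.40 (standard error 0.83). Both genes were highest in the CNV/CNV piglets 6415 and 6434, with the wild-type piglet 6407 below both.

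*SVEP1*, the gene of the sushi domain protein, had 2.18, 2.26 and 8.42 RPKM in 6161ST, 6165ST and 6407 and 3.32, 12.4 and 10.9 RPKM in 6185STQ, 6415 and 6434. The wild-type piglet 6407 was well above the CNV/CNV piglet 6185STQ. The means of *SVEP1* were 4.29 ± 3.58 and 8.88 ± 4.88 RPKM, 1.14 apart on the log2 scale of the fit (standard error 0.65). *LAMA2*, the laminin chain of basement membranes, had 3.82, 3.73 and 13.5 RPKM in the wild-type piglets and 4.56, 13.8 and 25.9 RPKM in the CNV/CNV piglets. For this gene 6407 was at the level of 6415, with 397 reads (95% Poisson interval 359 to 438) against 400 reads (362 to 441). The means were 7.03 ± 5.64 and 14.7 ± 10.7 RPKM, and the log2 fold change was 1.17 (standard error 0.70). The *LAMA2* transcript of the tables is 664 bases long, far short of an mRNA for a whole laminin chain, so that its value stands for a piece of the gene. For comparison, the *SVEP1* transcript is 10935 bases long.

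*ANGPTL7* varied the most. Its level was 0.555, 0.355 and 8.53 RPKM in 6161ST, 6165ST and 6407 and 2.25, 14.1 and 20.3 RPKM in 6185STQ, 6415 and 6434, a span of 57.1-fold between the lowest and the highest piglet. The other 5 genes spanned from 5.52-fold (*PI16*) to 11.6-fold (*IGSF10*). At the low end *ANGPTL7* rested on 27 reads in 6161ST (95% Poisson interval 17.8 to 39.3) and on 17 reads in 6165ST (9.9 to 27.2), intervals that cover counting error only. The 105 reads in 6185STQ (85.9 to 127) and the 447 reads in 6407 (407 to 490) lay outside both. The wild-type mean was 3.15 ± 4.66 RPKM and the CNV/CNV mean 12.2 ± 9.15 RPKM, and the fitted log2 fold change was 2.02 (standard error 1.19). The authors' coverage column, the percentage of a transcript's bases with a read on them, was 83.1% and 73.1% for *ANGPTL7* in 6161ST and 6165ST. In all other values of the members it was from 90.3% to 99.9%.

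Of the 6 members, 6 were over 2-fold higher in CNV/CNV piglets in the edgeR fit, as were 1.63% of all transcripts tested. With the 3 CNV/CNV piglets all above the 3 wild-type piglets there were 0 of 6, and over all transcripts 2.11%. At an adjusted p under 0.05 edgeR called 0 of 6, against 0.00601% of all transcripts, and DESeq2 called 0 of 6, against 0.174%. At an unadjusted p under 0.05 edgeR had 1 of 6 (*PI16*) on the higher side, against 2.48% of all transcripts. The rule for the members used this same contrast, and nothing is read from these counts. The median log2 fold change was 1.31 over the 6 members and -0.0012 over all transcripts tested. Within a genotype the members spread widely. Log2 CPM is the count scaled to a library total that edgeR adjusted by TMM, whereas RPKM uses the plain total. The SD of log2 CPM within the genotypes was from 1.02 for *PI16* to 2.11 for *ANGPTL7*. This was at or above that of 97.1% to 99.7% of the transcripts tested. The choice by a fold change between these piglets bears on this measure too.

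All 6 genes parted the piglets by name. In each of them 6161ST, 6165ST and 6185STQ lay below 6407, 6415 and 6434, without overlap. Over all transcripts tested this held in this direction for 9.5%. The split by name puts 2 of the 3 CNV/CNV piglets on the higher side, so that the choice of the members for a high CNV/CNV mean bears on it, and no test is given. The mean of *PI16* was 61.8 ± 1.97 RPKM in the ST-named and 242 ± 118 RPKM in the other piglets (SD, n = 3 each), 3.92-fold higher. *PI15* had 12.3 ± 2.72 and 60.4 ± 17.5 RPKM, 4.89-fold, and *IGSF10* had 2.73 ± 0.618 and 17.2 ± 6.51 RPKM, 6.30-fold. For *SVEP1* the means were 2.58 ± 0.634 and 10.6 ± 2.02 RPKM, 4.09-fold, and for *LAMA2* 4.03 ± 0.460 and 17.7 ± 7.04 RPKM, 4.39-fold. *ANGPTL7* had 1.05 ± 1.04 and 14.3 ± 5.87 RPKM, 13.6-fold. The ST-named piglets were thus close to each other for *PI16* and *LAMA2*, and spread as far as their own mean for *ANGPTL7*. As a wild-type piglet, 6407 was 1.76-fold above the mean of 6161ST and 6165ST for *PI16*, from 3.02-fold to 3.79-fold above it for *PI15*, *LAMA2*, *IGSF10* and *SVEP1*, and 18.8-fold above it for *ANGPTL7*.

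**Figure D2:**
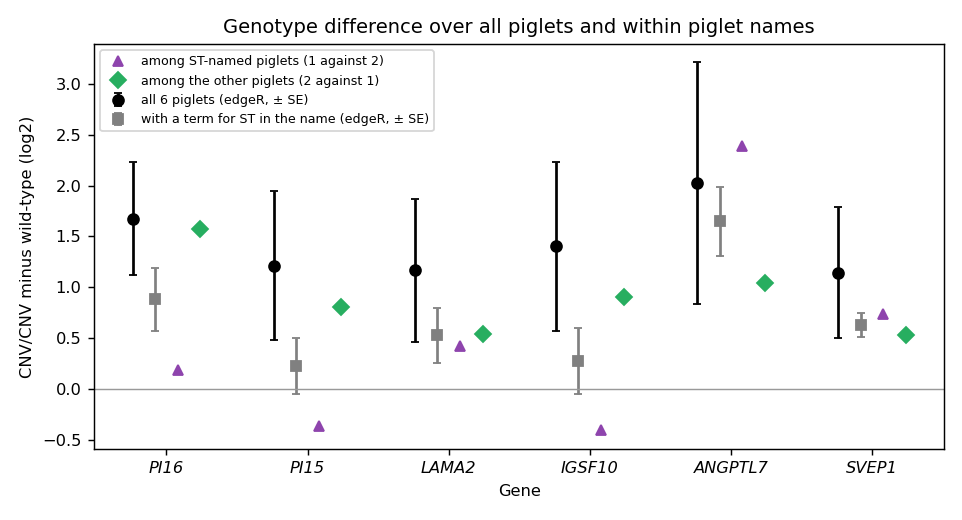
CNV/CNV minus wild-type on the log2 scale for each gene, from the edgeR fit over all 6 piglets (black, with standard error), from the edgeR fit with a term for ST in the name (grey, with standard error), among the ST-named piglets (purple) and among the others (green). PI15 and IGSF10 lie below 0 among the ST-named piglets, at -0.36 and -0.41, and above 0 among the others.

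Next, the genotypes were set side by side among piglets whose names are alike. Between the ST-named piglets there is 1 CNV/CNV against 2 wild-type, and between the others 2 CNV/CNV against 1 wild-type, too few for a test within either. Differences in this paragraph are of mean log2 CPM. Among the ST-named piglets CNV/CNV minus wild-type was 0.18 for *PI16*, -0.36 for *PI15* and -0.41 for *IGSF10*. It was 0.42 for *LAMA2*, 0.73 for *SVEP1* and 2.39 for *ANGPTL7*. In RPKM, 6185STQ was higher than both ST-named wild-type piglets for 3 members and lower than both for 2, with *PI16* between them. In log2 CPM *PI16* was above both, at 6.61 in 6185STQ against 6.39 in 6161ST and 6.47 in 6165ST. Among the other piglets 6407 was below 6415 and 6434 for 6 of 6. The share of all transcripts with these orders of piglets was not computed. The choice of the members for a high CNV/CNV mean bears on these counts, and nothing is read from them. The difference among the other piglets was 1.58 for *PI16*, 0.80 for *PI15* and 0.91 for *IGSF10*. It was 0.54 for *LAMA2*, 0.53 for *SVEP1* and 1.04 for *ANGPTL7*. The size of the difference therefore varied with the pair of piglets compared. It was near 0 in one set and large in the other for *PI16*, and of like size in both for *LAMA2* and *SVEP1*. With a term for ST in the name, edgeR gave log2 fold changes of 0.88 (standard error 0.31) for *PI16*, 0.23 (0.28) for *PI15*, 0.28 (0.32) for *IGSF10*, 0.63 (0.12) for *SVEP1*, 0.53 (0.27) for *LAMA2* and 1.65 (0.34) for *ANGPTL7*. Each was smaller than without the term. That of *PI15* fell below its standard error, as did that of *IGSF10*.

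Single piglets moved the fitted values. Without 6407 the log2 fold change was 4.90 for *ANGPTL7*, 2.37 for *IGSF10*, 2.16 for *SVEP1*, 2.13 for *LAMA2* and 2.02 for *PI15*. Without 6434 it was 0.48 for *LAMA2* and 0.76 for *PI15*, and without 6415 it was 0.80 for *IGSF10*. *PI16* stayed between 1.30 and 2.12 whichever piglet was left out.

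Per length, the order of the mean levels over the 6 piglets was *PI16* (152 RPKM), *PI15* (36.4 RPKM), *LAMA2* (10.9 RPKM), *IGSF10* (9.95 RPKM), *ANGPTL7* (7.67 RPKM) and *SVEP1* (6.58 RPKM). Within piglets, *PI16* was above *PI15* in 6 of 6, by 2.60-fold to 6.54-fold, and *PI15* above *LAMA2* in 6 of 6, by 2.10-fold to 4.61-fold. The ranges over piglets overlapped even for these pairs. *LAMA2* was above *IGSF10* in 5 of 6 piglets, *IGSF10* above *ANGPTL7* in 4 of 6 and *ANGPTL7* above *SVEP1* in 3 of 6, so that the last 4 genes had no fixed order. *ANGPTL7* was the lowest of the 6 genes in 6161ST and 6165ST and in no other piglet.

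**Figure D3:**
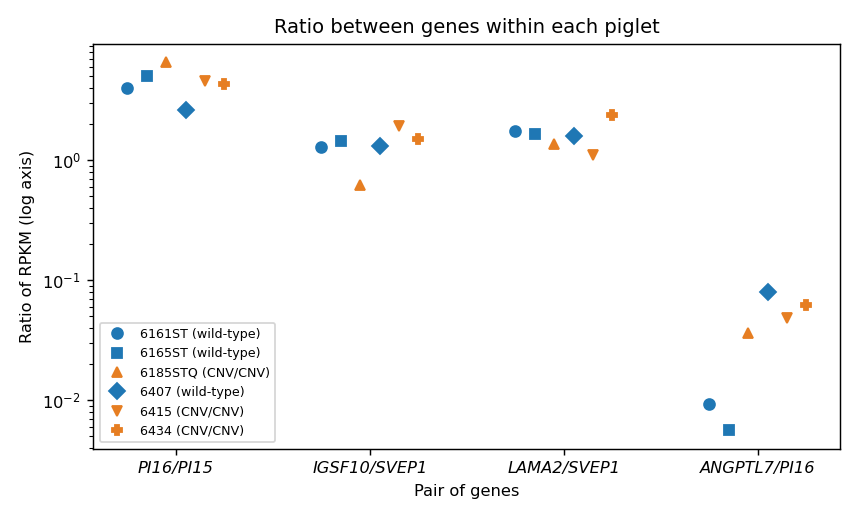
Ratio of the RPKM of 2 genes within a piglet (log axis), drawn in blue for wild-type and in orange for CNV/CNV piglets. The ratio of LAMA2 to SVEP1 lies between 1.11 and 2.37, and that of ANGPTL7 to PI16 between 0.0056 and 0.0791.

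Of the 4 ratios between members that were computed, the 3 without *ANGPTL7* varied less from piglet to piglet than the level of either gene. The ratio of *PI16* to *PI15* had an SD of 0.44 on the log2 scale over the 6 piglets, where the level of *PI16* had 1.14 and that of *PI15* 1.29. *LAMA2* against *SVEP1* had an SD of 0.36, and the levels 1.19 and 1.15. For *IGSF10* against *SVEP1* the SD was 0.55, with the ratio at 0.622 in 6185STQ and from 1.30 to 1.93 in the other piglets. *ANGPTL7* against *PI16* had an SD of 1.56, between those of the levels of *PI16* (1.14) and *ANGPTL7* (2.47), from a ratio of 0.0056 in 6165ST to 0.0791 in 6407. The ratio was low in 6165ST and 6161ST (0.0093) and higher in 6185STQ (0.0360), 6415 (0.0485) and 6434 (0.0616). As a measure of likeness, the root mean square difference between profiles of log2 CPM, each minus its mean over the 6 piglets, was 0.32 between *PI15* and *IGSF10* and 0.33 between *LAMA2* and *SVEP1*. Over the 15 pairs of members its median was 0.50. All 5 pairs with *ANGPTL7* were at 1.19 or more. All of these values come from the same 6 libraries.

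By the same measure, the profile of each member was compared with those of the other 240 tested transcripts that have a name in the study's list, all of which that list had picked on these piglets. The 3 nearest to *PI16* were *ELN*, the gene of elastin (0.29), *ASPN*, which encodes the small proteoglycan asporin (0.30), and *SOST*, which encodes the Wnt antagonist sclerostin (0.37). For *SVEP1* they were *ELN* (0.20), *ASPN* (0.24) and *COL1A1*, the gene of the main collagen of skin and bone (0.28), and for *LAMA2* *ASPN* (0.22), *ELN* (0.28) and *SVEP1* (0.33). *PI15* had *IGSF10* (0.32), *ASPN* (0.35) and *LAMA2* (0.36) nearest. *IGSF10* had *PI15* (0.32), a *TNXB* transcript (0.40) and *COL1A1* (0.42), where *TNXB* encodes tenascin-X, a matrix protein that binds collagen. *ANGPTL7* had no near profile. *LOX*, the gene of the enzyme that cross-links collagen and elastin, was at 0.78 and was the nearest of all transcripts tested, followed by *CHAD*, a cartilage matrix gene (0.82), and another *TNXB* transcript (0.85). By comparison, a flat profile was at 2.25 from *ANGPTL7* and at 1.09 from *PI16*. For the other 5 members, 2 or 10 transcripts with no name in that list were nearer than the first of these.

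**Figure D4:**
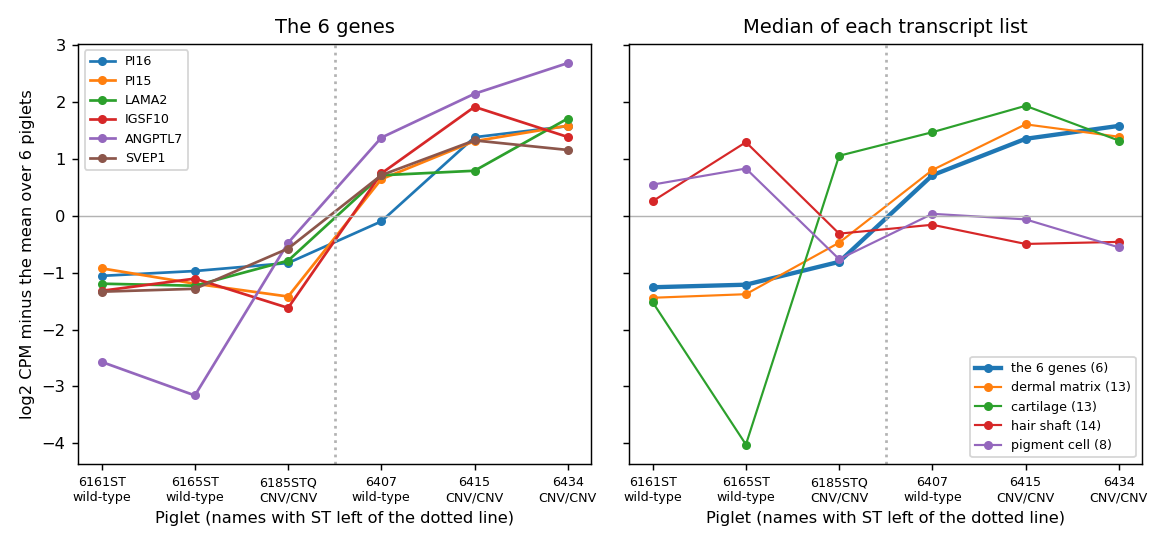
Left, log2 CPM of each gene minus its mean over the 6 piglets. Right, the median of the same quantity over the 6 genes and over 4 other transcript lists, with the number of transcripts in parentheses; lines join the values of one gene or list, and ST-named piglets lie left of the dotted line. In 6185STQ the 6 genes lie at -0.81 and the cartilage list at 1.05.

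A list of other fibroblast and dermal matrix genes, called dermal matrix here, does not hold the members. It showed how the members stood against collagen and elastin in the same libraries. The list of 13 transcripts holds *COL1A1*, *COL14A1*, *COL8A1*, *ELN*, *LOX*, *ASPN*, 4 tenascin-X transcripts, *CD248*, *SCARA5* and *C1QTNF3*, all of them picked by the study on these piglets. All 13 were tested and had a higher mean in CNV/CNV piglets. Their median log2 fold change was 1.21. By an adjusted p under 0.05, 0 of 13 passed in edgeR, against 0.00601% of all transcripts, and 0 of 13 in DESeq2, against 0.174%. By an unadjusted p under 0.05 in edgeR 3 did, all higher, against 2.48% of all transcripts on the higher side. In 12 of the 13 the ST-named piglets lay below the others, against 9.5% of all transcripts tested. The 13 hold 4 transcripts of tenascin-X and were picked on these piglets, so nothing is read from these counts. The most abundant were *COL1A1*, with a wild-type mean of 2415 ± 2532 RPKM and a CNV/CNV mean of 5217 ± 3510 RPKM, *ELN*, with 253 ± 175 and 659 ± 380 RPKM, and *LOX*, with 59.7 ± 72.7 and 143 ± 105 RPKM. The next was *ASPN*, with 48.5 ± 30.8 and 106 ± 61.8 RPKM. The *COL1A1* transcript is 911 bases long, short of an mRNA for a whole collagen chain. Its level, and the ratios to it, therefore stand for a piece of the gene. *PI16* varied less than *COL1A1* between piglets, with an SD of 1.14 against 1.43 on the log2 scale, and its ratio to *COL1A1* was 0.0688 in 6161ST and 0.0607 in 6165ST and fell to 0.0202 in 6407. In the CNV/CNV piglets that ratio was 0.0430, 0.0345 and 0.0568 in 6185STQ, 6415 and 6434, within the range of the wild-type piglets.

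Markers of other parts of the ear also differed between these libraries. Their lists were chosen with earlier results of these data known. The cartilage and pigment cell lists hold genes that the article reports as differential between these piglets. Nothing is therefore read from how the lists differ by genotype. The median level of the members, as log2 CPM minus each gene's mean, was -1.26 in 6161ST, -1.21 in 6165ST and -0.81 in 6185STQ, and 0.71 in 6407, 1.35 in 6415 and 1.58 in 6434. The cartilage list, of which all 13 transcripts were tested, had -1.52, -4.02 and 1.05 in 6161ST, 6165ST and 6185STQ. It had 1.47, 1.93 and 1.32 in 6407, 6415 and 6434. Thus in 6185STQ the cartilage median was near that of the piglets without ST in the name. The median of the 6 members was nearer that of the ST-named wild-type piglets. Single members differed from this median. *ANGPTL7* was at -0.48 in 6185STQ, against -2.57 in 6161ST and -3.16 in 6165ST. *SVEP1* was at -0.58, against -1.33 and -1.28, while *PI15* was at -1.42, against -0.92 and -1.19. The summed RPKM of the cartilage list ranged from 17.8 to 748 in wild-type and from 550 to 1122 in CNV/CNV piglets, and that of the 6 members from 83.9 to 191 and from 84.3 to 478. Hair shaft transcripts, 14 of 16 of them tested and the other 2 not analysed here, ran from 1384 to 5155 RPKM in wild-type and from 946 to 1476 RPKM in CNV/CNV piglets. These are sums, and the list was not uniform. In the edgeR fit 12 of the 14 hair shaft transcripts were lower in CNV/CNV piglets and 2 were higher. Pigment cell transcripts, 8 of 8 tested, ran from 160 to 294 and from 88.2 to 160 RPKM. Of the 2 red cell transcripts listed, 1 was analysed, *ALAS2*, which encodes a heme synthesis enzyme, and it had 0.175 to 0.628 RPKM in the wild-type and 0.549 to 1.15 RPKM in the CNV/CNV piglets. The part of these differences in tissue make-up in the values of the 6 members was not tested.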

How the data were processed

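Total ear RNA of 6 Sutai piglets, 3 of each genotype, was sequenced by the authors on an Illumina HiSeq instrument. The deposited tables hold, for each transcript, the count of uniquely mapped reads, the length, the coverage in percent and the RPKM. Each RPKM was recomputed from the count, the length and the total in the file header, and matched within a relative tolerance of 0.001. The authors' notes name Bowtie2, TopHat, Cuffdiff and the build Sscrofa10.2, whereas the article names Sscrofa 11.1, so no coordinates are printed. Strand use in the counting is not given in the sources used here. Groups were taken from the genotype in the labels. A transcript that a table does not list was set to 0.

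The deposited counts were fitted with edgeR 4.0.16 in R 4.3.3 (filterByExpr, TMM, quasi-likelihood test, Benjamini-Hochberg adjustment), with genotype as the only term. Log2 CPM was computed with TMM-adjusted library totals and a prior count of 2. The alternatives were DESeq2 1.42.0, upper quartile scaling, no filter, the ratio of mean RPKM, a term for ST in the piglet's name and each piglet left out in turn, and the ST-named and the other piglets taken alone were added after seeing the data. The fit was tested on simulated data. The simulation gave all transcripts the same dispersion and had no split by piglet name, so it does not cover the wide spread of the members. Standard errors were derived from the test, as the size of the log2 fold change divided by the square root of the quasi-likelihood F statistic. Such standard errors rest only on 3 and 3 piglets and on dispersions that edgeR moderates across all transcripts. In the fit with a term for ST they measure the spread left after that term. Of the 280 names in the study's list of differential genes, 264 were found and 241 were tested. The members and the lists were chosen with earlier results of these data known. The text names the 6 members, the 4 dermal matrix transcripts with the highest mean RPKM, and for each member the 3 named transcripts with the nearest profile. Other genes are named to say what a list holds or what overlaps a member, and *ALAS2* also with its values, as the 1 red cell transcript analysed.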

Additional observations from a re-analysis of the deposited data

How the results depend on the processing

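With edgeR, 1 of the 16645 transcripts tested passed an adjusted p of 0.05, and it was none of the 6 members. The count was 1 with upper quartile scaling, 3 with no filter, 2 with a term for ST in the name and 29 with DESeq2, and from 0 to 6 with each piglet left out in turn (6 without 6407, 1 without 6434, 0 without any of the others). The cause was not tested. The members' median log2 fold change of 1.31 stayed above 0 under each alternative, at 0.58 with the term for ST, 0.30 among the ST-named piglets and from 1.01 to 2.14 with each piglet left out. The members were chosen for a high CNV/CNV mean in these same libraries, so nothing is read from the sign of this median. For single members the direction turned among the ST-named piglets for *PI15* (-0.36) and *IGSF10* (-0.41), and under no other alternative for any member. *PI16* was at 0.18 among the ST-named piglets. No paired analysis was possible because the labels give no litter or other factor that matches piglets across the genotypes. The 664 bases of the *LAMA2* transcript and the 17 to 105 reads of *ANGPTL7* in the ST-named piglets limit the precision of both genes.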
